A study of Homo sapiens with 5 samples.

Results

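The genes described are those of MHC class I antigen presentation in the human small cell lung cancer (SCLC) line NCI-H209: the heavy chains HLA-B, HLA-C, HLA-E and HLA-F, the light chain B2M, the peptide transporter subunits TAP1 and TAP2, the coactivator NLRC5 and the immunoproteasome subunit PSMB9. They were taken by name as a list of 9 genes, and 8 of them were found in the series' gene symbol table, whereas HLA-E was found by its name in GENCODE. Together they had 21 entries of the 64837 in the count files, because most of them are annotated on the primary chromosomes (9 entries) and again on patch or haplotype sequences (12 entries). Of the 21 entries, 10 passed the filter on low counts and were tested among 20360 entries. These 10 belonged to 5 of the genes, and HLA-E, TAP1, TAP2 and PSMB9 had no tested entry.

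RNA-Seq was done on 3 untreated control libraries of NCI-H209 and on 2 libraries of NCI-H209 kept for 24 h with human brain microvascular endothelial cells (HBMECs) in a Transwell system, where a porous membrane separates both cell types. The cells in all 5 libraries were grown in RPMI-1640 with fetal bovine serum and no engineered allele is named for them, and all come from 1 established line. The labels do not say that the libraries of a group came from separate cultures, so the p-values measure the spread between these libraries, which may be technical. The libraries held 15457071 to 19157348 counts on genes, so that 3 counts, taken as the floor, equal 0.154 to 0.198 CPM (counts scaled to the TMM-adjusted library total).

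MHC class I molecules show peptides from inside the cell to CD8+ T cells. The proteasome cuts proteins into peptides, TAP1 and TAP2 carry them into the endoplasmic reticulum, and the loading complex fits them onto a heavy chain bound to B2M. Interferons raise the expression of most of these genes through IRF1 and NLRC5, and many SCLC tumours are known for low class I expression.

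The sequences before the gene starts of HLA-B, HLA-C and B2M are shown because these 3 genes carried most of the counts of the 9 genes, and HLA-B and HLA-C were called higher where B2M was not. They are the 250 bases before the start in RefSeq (GRCh38.p14), written 5′ to 3′ on the strand of the gene, at chr6:31357180-31357429 (minus strand) for HLA-B, chr6:31272093-31272342 (minus strand) for HLA-C and chr15:44711267-44711516 (plus strand) for B2M. Capitals mark matches on either strand to GTTTCAC and to GAAANNGAAA, both forms of the interferon-stimulated response element that interferon regulatory factors bind. They also mark matches to GGGNNTNNCC (a loose NF-kB motif), to TGACG (core of the cAMP response element) and to CCAAT (bound by NF-Y). These letters were chosen after the sequences were seen.
HLA-B: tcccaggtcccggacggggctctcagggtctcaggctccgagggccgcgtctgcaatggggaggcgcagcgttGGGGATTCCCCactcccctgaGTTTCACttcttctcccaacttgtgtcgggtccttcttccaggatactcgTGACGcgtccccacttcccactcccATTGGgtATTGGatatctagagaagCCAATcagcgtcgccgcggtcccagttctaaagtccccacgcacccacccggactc
HLA-C: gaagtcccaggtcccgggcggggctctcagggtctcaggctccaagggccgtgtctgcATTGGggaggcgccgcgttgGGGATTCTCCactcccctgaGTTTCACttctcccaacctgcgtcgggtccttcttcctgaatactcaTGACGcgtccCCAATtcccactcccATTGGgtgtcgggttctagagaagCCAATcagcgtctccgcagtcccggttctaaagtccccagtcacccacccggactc
B2M: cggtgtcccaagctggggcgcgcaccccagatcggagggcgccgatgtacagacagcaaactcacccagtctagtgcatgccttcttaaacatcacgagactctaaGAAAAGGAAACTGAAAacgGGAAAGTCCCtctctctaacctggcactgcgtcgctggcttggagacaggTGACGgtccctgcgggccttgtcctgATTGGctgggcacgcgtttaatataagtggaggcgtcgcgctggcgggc

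Over windows of 300 bases, which add 50 bases after the start, HLA-B and HLA-C were 88.5% identical, whereas B2M was 49.4% identical to HLA-B and 49.6% to HLA-C. GTTTCAC stood at position -156 in HLA-B and -152 in HLA-C, counted back from the gene start, and occurred in 2.44% of the 35116 promoter windows. GAAANNGAAA stood at -144 and, overlapping it, at -138 in B2M, was also present in HLA-F, TAP1 and TAP2, and occurred in 3.57% of all windows. GGGNNTNNCC was found in HLA-B, HLA-C, B2M and TAP1 and in 22% of all windows, and in HLA-B its matches overlapped each other. TGACG was present in 24.6% and CCAAT in 34.6% of all windows, and both were found in HLA-B, HLA-C, B2M and PSMB9. TAP2 also held TGACG, and HLA-F and TAP1 also held CCAAT. The promoter table held 7 of the 9 genes, and HLA-E and NLRC5 were not in it.

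Counts on the primary entries of the MHC were low for most genes, whatever their role. Between the start of HLA-F and the end of TAPBP (GRCh38, chr6:29722775-33314387), 131 of 149 protein-coding genes (87.9%) did not exceed 3 counts in any library, and 110 were listed at 0 throughout. On the rest of chromosome 6 this held for 195 of 895 genes (21.8%), and outside the region it held for 23.9% of 19820 protein-coding genes. Genes that every cell uses were among those near 0. RPS18, a ribosomal protein, had 0, 2 and 1 counts in the control libraries against 0 and 1 after co-culture, and ABCF1 was listed at 0 in all 5 libraries. TUBB, a beta-tubulin, was listed at 0 on its primary entry and had 893, 607 and 814 counts in the control libraries against 653 and 559 after co-culture on 1 haplotype entry. Reads that map to several places, 7.05% to 7.75% of the reads of a library, are not counted to any gene in these files, and their part in the low counts was not tested. A value near 0 in this region was not read as absence of the transcript.

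**Figure D1:**
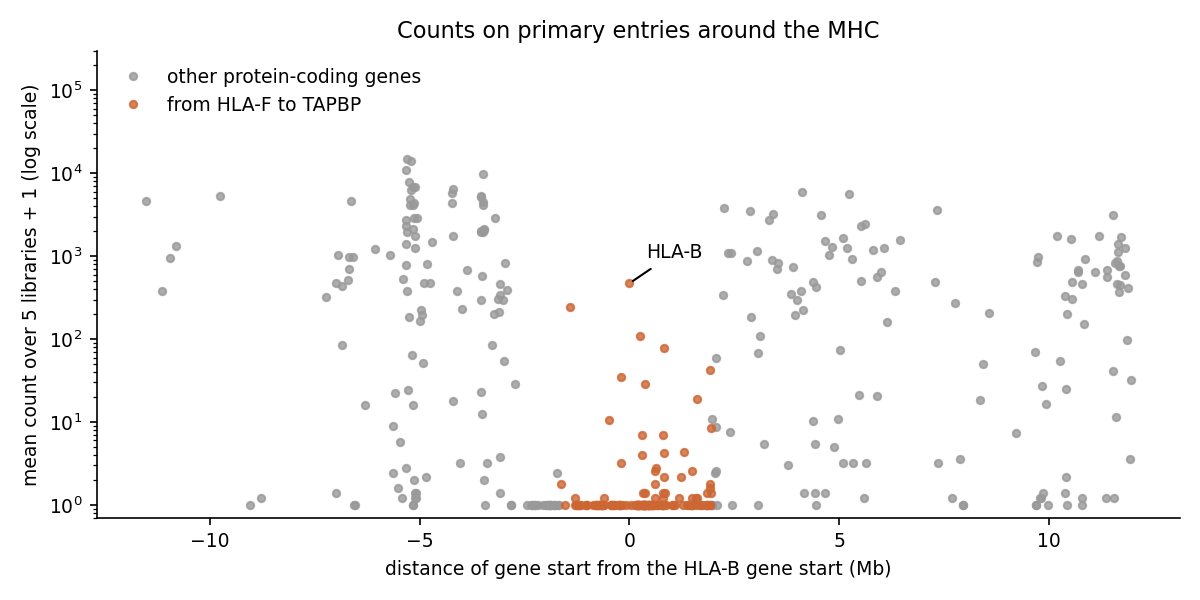
Mean count over the 5 libraries plus 1 (log scale) of protein-coding genes on chromosome 6 against the distance of their start from the start of HLA-B in Mb, for primary entries. Orange points are the 149 genes from HLA-F to TAPBP, of which 110 lie on the line of 0 counts, and HLA-B stands above the other orange points.

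HLA-B, HLA-C and NLRC5 were higher in co-cultured NCI-H209, and B2M was not called in either direction. On the primary entries, 2 of the 3 tested genes, HLA-B and NLRC5, were higher by the quasi-likelihood test of edgeR, with p-values adjusted by Benjamini-Hochberg. Of all 20360 entries tested, 18.4% were called higher and 15% lower. None of the 9 genes was called lower, with 0 at an unadjusted p under 0.05 and 0 by DESeq2. None passed the study's criterion for DEGs (an absolute change above 1, read on the log2 scale, with an unadjusted p under 0.05), which 5.44% of entries passed upwards and 5.01% downwards. In bulk RNA a higher level in every cell and more cells with a high level cannot be told apart.

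HLA-B, a classical heavy chain, is annotated at chr6:31269491-31357188 on the minus strand, where 1 of its transcripts reaches over HLA-C. Its primary entry (ENSG00000234745.10) had 516, 307 and 359 counts in the control libraries against 674 and 492 after co-culture. This corresponds to 27.4, 17.0 and 18.4 CPM against 36.8 and 32.5 CPM. Both co-cultured libraries lay above all 3 control libraries, as they did for 29.4% of all entries tested (30% lay below). The log2 fold change was 0.73 ± 0.18 (SE, n = 3 and 2), a 1.66-fold difference with a 95% interval of 1.24 to 2.21, and the adjusted p in edgeR's quasi-likelihood test was 0.0150. Without co-cultured 1 the log2 fold change was 0.64 with an adjusted p of 0.129 in the same edgeR test, and without co-cultured 2 it was 0.82 with 0.0666. No count lay on the opposite strand of this entry.

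The haplotype entries of HLA-B gave similar folds from separate reads. The entry ENSG00000206450.11 had 137, 101 and 91 counts in the control libraries against 199 and 130 after co-culture, with a log2 fold change of 0.74 ± 0.21 (SE) and an edgeR adjusted p of 0.0242. ENSG00000223532.10 had 85, 55 and 55 against 125 and 85 counts, with 0.85 ± 0.24 (SE) and an edgeR adjusted p of 0.0232. ENSG00000232126.8 had 66, 53 and 53 against 112 and 78 counts, with 0.89 ± 0.20 (SE) and an edgeR adjusted p of 0.00969. On the first of these, the control value of 137 counts exceeded the co-cultured value of 130. After scaling to CPM the groups did not overlap on any of these entries, and 29.4% of all entries tested lay above control likewise. The entries share the same RNA and libraries and are not independent replicates. The first and the second lost the call without any 1 library other than control 1 (edgeR adjusted p of 0.0592 to 0.213 and 0.0698 to 0.184), and the third lost it without co-cultured 1 (edgeR adjusted p of 0.110). With the replicate number as a block, the first and the second also lost the call (log2 fold changes 0.60 and 0.73, edgeR adjusted p of 0.0653 and 0.0546). The last one, ENSG00000228964.10, had at most 1 count. The primary entry held 59.5% to 64.2% of all HLA-B counts of a library (exact binomial 95% intervals from 55.1% to 68.2%, for counting error only), and these shares overlapped between the groups. With the entries of each gene summed, HLA-B had 805, 516 and 559 counts against 1111 and 785, with a log2 fold change of 0.76 ± 0.17 (SE) and an edgeR adjusted p of 0.00856.

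HLA-C, the other classical heavy chain, showed where the entry matters. Its primary entry (chr6:31268749-31272130, minus strand) was listed at 0 in all 5 libraries, while the haplotype entry ENSG00000225691.7 had 584, 421 and 444 counts in the control libraries against 855 and 627 after co-culture. These were 31.1, 23.3 and 22.7 CPM against 46.7 and 41.4 CPM. Both co-cultured libraries thus lay above all control libraries, as for 29.4% of all entries tested. The log2 fold change was 0.78 ± 0.14 (SE, n = 3 and 2), a 1.72-fold difference with a 95% interval of 1.38 to 2.14, and the adjusted p in edgeR's quasi-likelihood test was 0.00294. This entry held 93.9% to 96.6% of the HLA-C counts of a library and was called higher without each library in turn, with edgeR adjusted p values of up to 0.0475. A second haplotype entry (ENSG00000237022.10) had 36, 23 and 24 counts against 56 and 22, overlapped between the groups and was not called (log2 fold change 0.64 ± 0.37 (SE), edgeR adjusted p = 0.212). The last HLA-C entry had at most 1 count in a library. Summed over entries, HLA-C had a log2 fold change of 0.77 ± 0.14 (SE) and an edgeR adjusted p of 0.00361, where 18.5% of 20297 genes were called higher. The heavy chain genes resemble each other closely, and reads shared between them may be assigned to either or left out.

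HLA-F and HLA-E, non-classical heavy chains, had too few counts for a direction. The primary entry of HLA-F (chr6:29722775-29738528, plus strand) had 2, 1 and 0 counts against 0 and 1. Its haplotype entry (ENSG00000137403.19) had 7, 13 and 5 counts in the control libraries against 4 and 10 after co-culture, and the groups overlapped. The log2 fold change was -0.066 ± 0.64 (SE) with a 95% interval from -1.51 to 1.38, wide enough to hold both a fall and a rise of more than 2-fold, and its sign changed with 1 library left out. HLA-E, the ligand of the NKG2A receptor, had 1 entry (chr6:30489467-30494205, plus strand), which was listed at 0 in every library.

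B2M, the light chain that every class I heavy chain needs for its folding, lies outside the MHC at chr15:44711487-44718877 (plus strand). Its primary entry (ENSG00000166710.18) had 1792, 1464 and 1613 counts in the control libraries against 1707 and 1223 after co-culture. In CPM these were 95.3, 81.0 and 82.6 against 93.3 and 80.8, so that both co-cultured values fell inside the control range or within 1 CPM of it. The log2 fold change was 0.014 ± 0.10 (SE, n = 3 and 2), with a 95% interval of the fold from 0.863 to 1.18, and edgeR's quasi-likelihood test gave an adjusted p of 0.930. A patch entry (ENSG00000273686.4) had 15, 37 and 28 counts against 46 and 19 and was not called (log2 fold change 0.43 ± 0.43 (SE), edgeR adjusted p = 0.476), and the primary entry held 97.4% to 99.2% of the B2M counts.

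NLRC5, the coactivator that binds the promoters of class I genes, lies at chr16:56989485-57083531 (plus strand) and has no second entry. It had 149, 162 and 142 counts in the control libraries against 230 and 166 after co-culture, or 7.92, 8.96 and 7.27 CPM against 12.6 and 11.0 CPM. Both co-cultured libraries lay above all control libraries in CPM, as they did for 29.4% of all entries tested. The log2 fold change was 0.55 ± 0.15 (SE, n = 3 and 2), a 1.46-fold difference with a 95% interval of 1.16 to 1.85, and the adjusted p in edgeR's quasi-likelihood test was 0.0206. The call was lost without control 3 (log2 fold change 0.49, edgeR adjusted p = 0.0743), without co-cultured 1 (0.45, edgeR adjusted p = 0.184) and without co-cultured 2 (0.65, edgeR adjusted p = 0.0654).

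**Figure D2:**
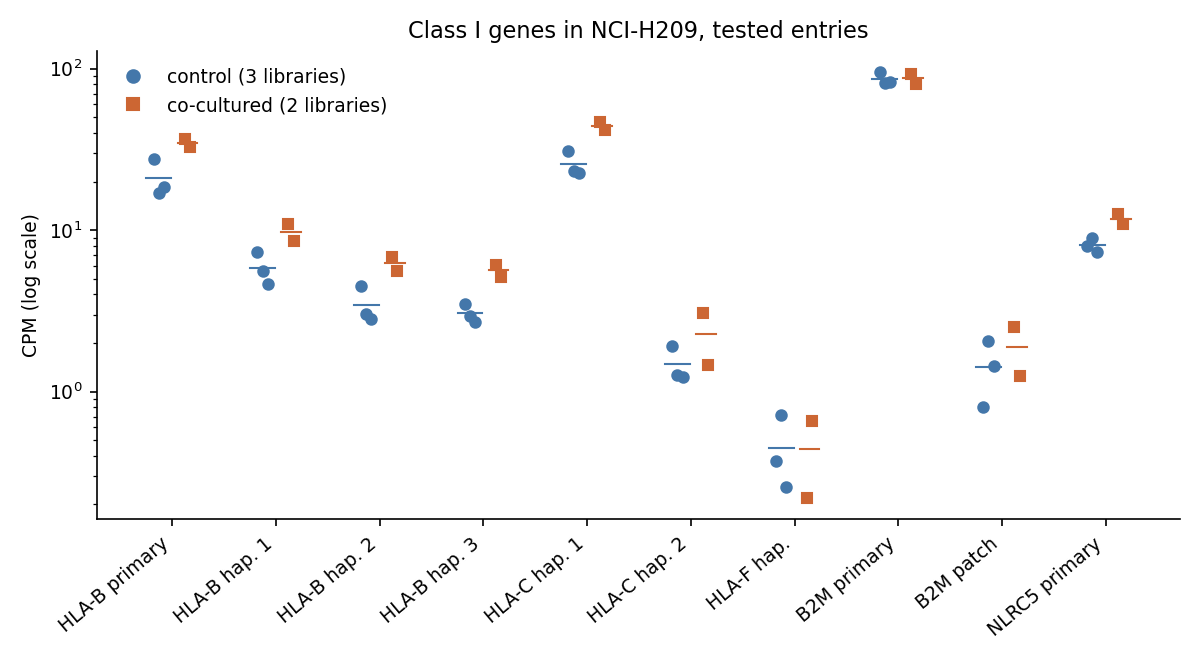
CPM (log scale) of the 10 tested entries in the 3 control libraries (blue circles) and the 2 co-cultured libraries (orange squares), with group means as lines; hap. marks a haplotype entry, numbered in the order of the text. HLA-B, the first HLA-C haplotype entry and NLRC5 lie higher in both co-cultured libraries, whereas B2M overlaps at 80.8 to 95.3 CPM.

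TAP1, TAP2 and PSMB9 lie side by side in the MHC and could not be tested. TAP1 (chr6:32845209-32853978, minus strand) had 1, 0 and 0 counts against 0 and 0 on its primary entry and 0, 0 and 0 against 3 and 1 on its haplotype entry. TAP2 (chr6:32821833-32838780, minus strand) had 0, 2 and 1 against 1 and 4 on the primary entry and 3, 2 and 1 against 0 and 2 on the haplotype entry. PSMB9, which replaces a constitutive catalytic subunit in the immunoproteasome, overlaps TAP1 on the opposite strand (chr6:32844136-32859585, plus strand). It was listed at 0 on the primary entry and had 0, 0 and 1 counts against 1 and 0 on the other. No single entry of these 3 genes exceeded 4 counts in a library, and TAP2 summed over entries reached 6 in co-cultured 2. The neighbouring PSMB8, another immunoproteasome subunit, was listed at 0 on its primary entry with 6, 9 and 8 against 15 and 7 counts on a haplotype entry. For the 4 untested genes the counts allow no statement on a difference between the groups, and the part of uncounted reads in this was not tested.

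**Figure D3:**
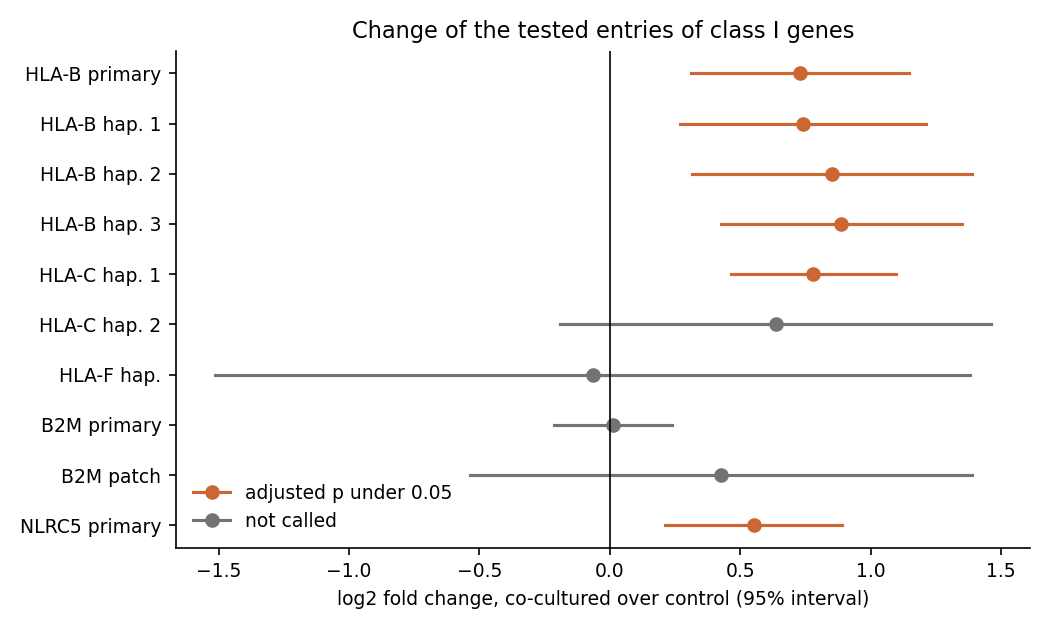
Log2 ratio of co-cultured to control cells with its 95% interval for the 10 tested entries, coloured where edgeR's adjusted p was under 0.05. All 4 tested HLA-B entries, the first HLA-C haplotype entry and NLRC5 lie between 0.55 and 0.89 with intervals above 0, and the intervals of the other 4 entries include 0.

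Per kilobase of exon, with the entries of each gene summed, the levels of the genes are given as counted. Reads that match several copies are not counted. B2M lies outside the MHC but has a patch entry too, so reads of B2M may also be left out. The length used joins all annotated exons of the primary entry, 6079 bp for B2M, 3051 for HLA-B and 2507 for HLA-C. The order therefore rests on the counted reads and on this length, and may not be that of the transcripts. Before division by length, B2M lay above HLA-B and HLA-C in both groups. The mean CPM were 87.7 against 33.3 and 27.2 in control and 88.9 against 56.3 and 46.3 in co-cultured cells. In control cells B2M came first with 14.4 ± 1.20 CPM per kb (SD, n = 3), followed by HLA-B with 10.9 ± 2.69 and HLA-C with 10.8 ± 2.02, and the ranges of B2M and HLA-B touched (13.6 to 15.8 against 9.35 to 14.0). In co-cultured cells HLA-B and HLA-C were both at 18.5 CPM per kb (SD 2.06 and 1.95, n = 2) and B2M at 14.6 ± 1.60. NLRC5 was far below them with 0.650 ± 0.0686 in control and 0.950 ± 0.0917 CPM per kb in co-cultured cells, and HLA-F stood at 0.116 and 0.109. TAP2, TAP1, PSMB9 and HLA-E were at or under 0.0353 CPM per kb in both groups and could not be ordered among themselves.

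Relative to B2M in the same library, both heavy chains were higher in co-cultured cells, which does not rest on the scaling between libraries. HLA-B had 44.5, 34.4 and 34.1 counts per 100 B2M counts in the control libraries against 63.4 and 63.2 after co-culture. HLA-C had 34.4, 29.6 and 28.6 against 52.0 and 52.3. The co-cultured libraries did not overlap with control for either gene, and the exact two-sided permutation p was 0.1 for each, the smallest that 3 against 2 libraries allow. NLRC5 had 8.25, 10.8 and 8.65 against 13.1 and 13.4 counts per 100 B2M counts, with an exact two-sided permutation p of 0.2.

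**Figure D4:**
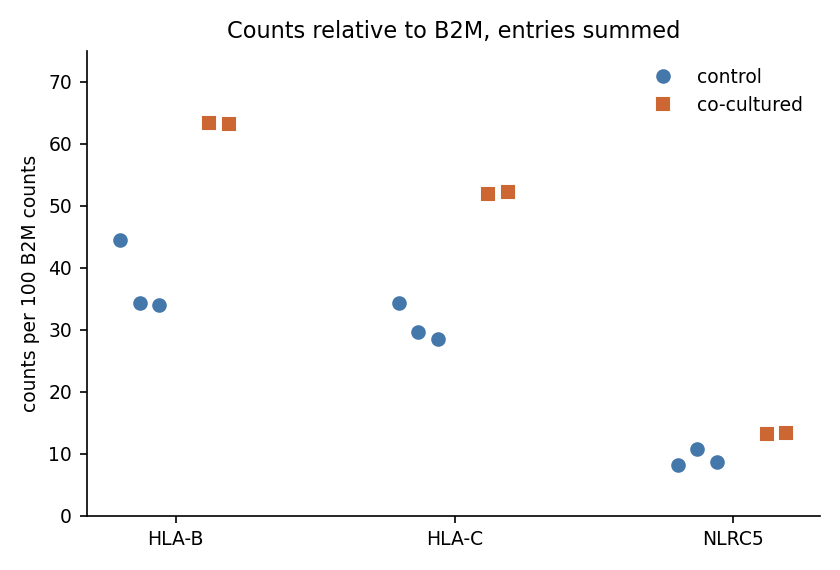
Counts per 100 B2M counts of HLA-B, HLA-C and NLRC5 with all entries of a gene summed, in 3 control (blue circles) and 2 co-cultured libraries (orange squares). HLA-B lies at 34.1 to 44.5 in control and at 63.4 and 63.2 in the co-cultured libraries.

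Around these genes, 112 genes were described in 10 lists, which hold interferon-stimulated, class II and Polycomb genes beside those of the class I pathway. The lists were drawn up with earlier results of these data known, so the share called is not that of an unselected set. Of the 72 that were tested, 37 were higher, 4 were lower and 31 were not called by edgeR's quasi-likelihood test, where 18.4% and 15% of all entries were called higher and lower. Of the 37, 17 were interferon-stimulated genes, of which 21 were tested. The median log2 fold change of the 72 genes was 0.45, beside -0.033 over all entries tested. Another 25 genes were listed at 0 in every library, and 28 of the 112 lie in the MHC region with few counts. Without co-cultured 1, 18 pathway genes were called higher and 1 lower, and without co-cultured 2 these numbers were 23 and 1. Of the 41 calls, 18 (17 higher and 1 lower) were kept without each library in turn.

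The factors that act on class I promoters included 7 higher and 1 lower of 13 tested, beside 18.4% and 15% of all entries tested. Their median change was 0.28 on the log2 scale. IRF1, which binds interferon response elements, had 559, 592 and 518 counts in the control libraries against 1283 and 998 after co-culture, and its log2 fold change was 1.20 ± 0.10 (SE, edgeR adjusted p = 8.1e-05). IRF2 rose by 0.63 and RFXANK, a subunit of the RFX complex that works with NLRC5, by 0.58 on the log2 scale. The call of RFXANK was lost without co-cultured 2 (edgeR adjusted p = 0.0581). NFYA, a subunit of the factor that binds CCAAT, was the 1 gene of this list that fell, by 0.41 on the log2 scale (edgeR adjusted p = 0.0231), and it lost the call without either co-cultured library (log2 fold changes over single omissions from -0.49 to -0.31).

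Of 10 tested genes of interferon receptors and JAK-STAT signalling, 7 were higher, beside 18.4% of all entries tested. None was lower (0 by edgeR at an unadjusted p under 0.05 and 0 by DESeq2), beside 15% of all entries. The median change was 0.50 on the log2 scale. JAK1 rose by 0.58, the receptor chain IFNGR1 by 0.63 and JAK2 by 0.42 on the log2 scale, with edgeR adjusted p values of 0.000706, 0.00197 and 0.00732. JAK2 lost the call without either co-cultured library (edgeR adjusted p up to 0.0792). IFNG was listed at 0 in all libraries. IFNB1, the gene of interferon beta, had 0, 0 and 0 counts in the control libraries against 8 and 4 after co-culture, which the filter kept out of the test. The mean CPM of the co-cultured libraries was 2.20 times a floor of 3 counts per control library. This leaves out the counting error of the 8 and 4 counts and is no lower bound of the fold. IFNB1 was singled out after its values were seen.

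Interferon-stimulated genes were higher in 17 of 21 tested, beside 18.4% of all entries tested. None was lower (0 by edgeR at an unadjusted p under 0.05 and 0 by DESeq2), beside 15% of all entries. Their median log2 fold change was 1.30. OAS1, an antiviral 2′-5′-oligoadenylate synthetase, rose from 49, 44 and 37 counts to 249 and 132, with a log2 fold change of 2.28 ± 0.24 (SE, edgeR adjusted p = 0.000210). The partner proteins PARP9 and DTX3L rose by 1.45 and 1.06, and OAS3 by 1.30 on the log2 scale. These 4 genes were called higher without each library in turn.

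Of 10 tested genes of peptide loading and trimming, 2 were higher and 1 was lower, and the median change was 0.14 on the log2 scale. Of all entries tested, 18.4% were called higher and 15% lower, so these counts are not read as a result about the list. PDIA3, a disulfide isomerase of the loading complex, rose by 0.50 on the log2 scale (5004, 3953 and 4412 against 6197 and 5048 counts, edgeR adjusted p = 0.00410). The aminopeptidase LNPEP rose by 0.23 (edgeR adjusted p = 0.0354) and the peptidase THOP1 fell by 0.28 on the log2 scale (edgeR adjusted p = 0.0249), and both lost the call without control 2, without control 3 and without either co-cultured library (edgeR adjusted p up to 0.206 and 0.188). ERAP2, which trims peptides in the endoplasmic reticulum, had a log2 fold change of 0.69 (edgeR adjusted p = 0.0572). TAPBP, which bridges TAP and the heavy chain, had 13, 7 and 4 counts against 11 and 2 on its primary entry and 48, 16 and 34 against 42 and 41 on a haplotype entry. Summed over entries its log2 fold change was 0.41 (edgeR adjusted p = 0.398). CANX, counted above by its primary entry, was not called there (log2 fold change 0.33, edgeR adjusted p = 0.0843). Summed over its entries, CANX was called higher (log2 fold change 0.29, edgeR adjusted p = 0.0422).

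The proteasome lists were small, with 1 of 2 tested immunoproteasome and activator genes and 2 of 3 constitutive subunits higher. Over all entries tested the share called higher was 18.4%. POMP, the proteasome assembly factor, rose by 0.46 on the log2 scale (edgeR adjusted p = 0.0349), and the immunoproteasome subunit PSMB10 had a log2 fold change of 0.99 on 15, 3 and 7 counts against 21 and 9 (edgeR adjusted p = 0.230). PSME1 and PSME2, which form the proteasome activator, were listed at 0 throughout, as was IRF9, although these 3 genes lie outside the MHC. Of the constitutive subunits that immunoproteasome subunits replace, PSMB5 and PSMB6 rose by 0.43 and 0.62 on the log2 scale (edgeR adjusted p = 0.0170 and 0.0208), and PSMB7 had a log2 fold change of 0.36 (edgeR adjusted p = 0.0927). POMP and PSMB6 lost the call without control 2, without control 3 and without either co-cultured library (edgeR adjusted p up to 0.179 and 0.129), and PSMB5 without either co-cultured library (up to 0.122).

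Among relatives of the heavy chains outside the MHC, MR1, which presents vitamin metabolites, had 22, 23 and 33 counts in the control libraries against 85 and 60 after co-culture. Its log2 fold change was 1.64 ± 0.25 (SE, edgeR adjusted p = 0.00135), and it was called higher without each library in turn. MR1 was the 1 called gene of 3 tested in this list, beside 18.4% of all entries called higher and 15% lower. HFE, a regulator of iron uptake, had a log2 fold change of 0.89 (edgeR adjusted p = 0.118) and FCGRT, the neonatal Fc receptor chain, of -0.30 (edgeR adjusted p = 0.0923). HLA-G, MICA, MICB and CD1D were listed at 0.

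CIITA, which does for class II genes what NLRC5 does for class I, had 13, 5 and 11 counts in the control libraries against 34 and 25 after co-culture. Its log2 fold change was 1.76 ± 0.39 (SE, edgeR adjusted p = 0.00829), and it lost the call without either co-cultured library (edgeR adjusted p up to 0.0883). The class II genes themselves gave few counts, with 9 of the 12 genes of the list at or under 3 counts in every library. CIITA was the 1 called gene of 2 tested in that list, beside 18.4% of all entries called higher and 15% lower. CD74, the invariant chain, had 23, 10 and 2 counts against 4 and 1 and was not called (edgeR adjusted p = 0.154).

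Polycomb repressive complex 2, which is known to silence class I genes in SCLC, was described because of that role. Of its 9 genes, all tested, none was higher (0 by edgeR at an unadjusted p under 0.05 and 0 by DESeq2). Lower were 2, beside 15% of all entries tested, and the median log2 fold change was 0.077. EZH2, the main methyltransferase, had a log2 fold change of 0.089 with a 95% interval from -0.088 to 0.27. EZH1, its relative, fell by 0.77 on the log2 scale (713, 817 and 891 against 462 and 377 counts, edgeR adjusted p = 0.000904) and was called without each library in turn. MTF2, an accessory subunit, fell by 0.34 on the log2 scale (edgeR adjusted p = 0.0472) and lost the call without control 2, without control 3 and without either co-cultured library (edgeR adjusted p up to 0.247).

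**Figure D5:**
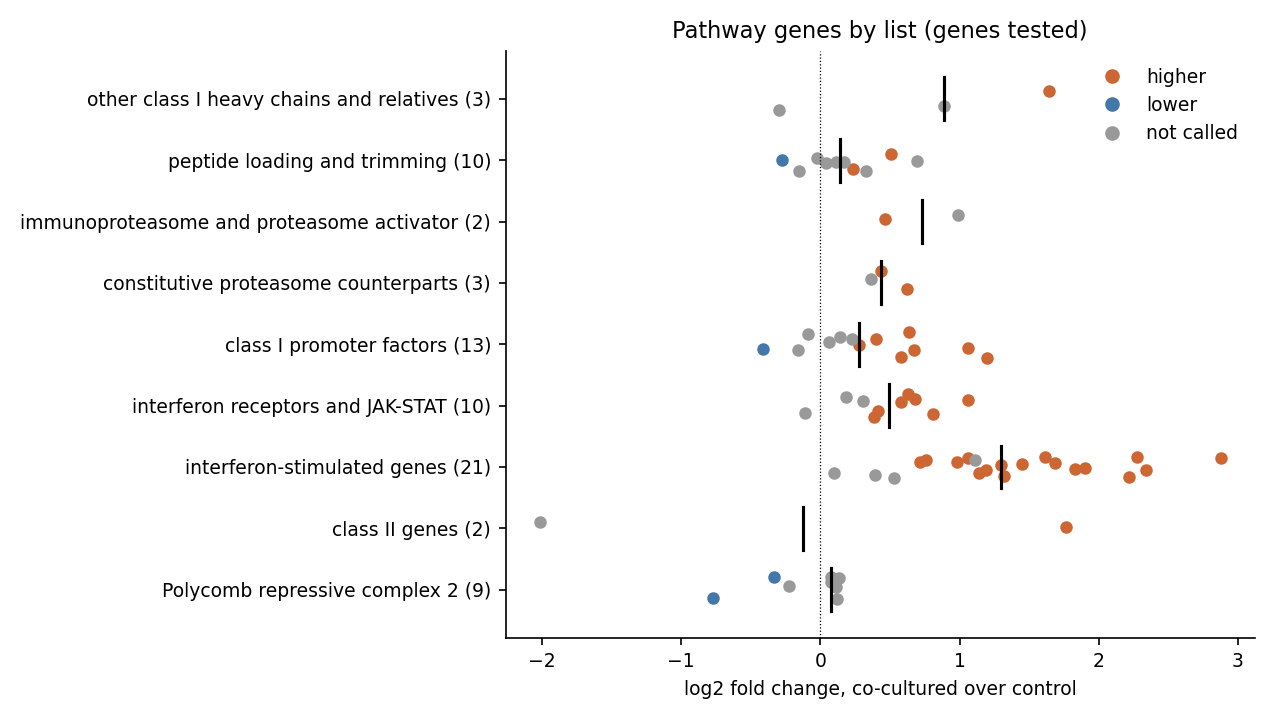
Log2 ratio of co-cultured to control cells for each tested pathway gene, by list, with the number tested in brackets; black bars are list medians and colours give the call by edgeR's adjusted p under 0.05. Interferon-stimulated genes have the highest median with at least 10 genes tested, at 1.30, and Polycomb repressive complex 2 has a median of 0.077.

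Of the 14 genes and pseudogenes that overlap or lie antisense to these loci, none was tested, and PSMB8-AS1, which lies on the strand opposite PSMB8, was listed at 0. Opposite-strand counts of B2M were 1, 13 and 21 in control and 2 and 5 in co-cultured cells.

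Endothelial RNA was checked because HBMECs express class I genes too. The summed level of 20 endothelial markers was 28.0, 20.6 and 18.6 CPM in control 1, 2 and 3 and 24.5 CPM in both co-cultured libraries. The co-cultured sums lay below control 1 and above control 2 and control 3. A small share of endothelial RNA cannot be told from these sums. PLVAP and MMRN1 were listed at 0 in all libraries, and 13 to 15 markers had a count in each library. PECAM1 had 14, 10 and 3 counts against 18 and 11, and CDH5 11, 8 and 4 against 7 and 11, and neither was called by edgeR. Of 9 tested markers ESAM (3, 4 and 6 against 21 and 14 counts) and ICAM2 were called higher, with log2 fold changes of 2.14 and 0.45. None was called lower (0 by edgeR at an unadjusted p under 0.05 and 0 by DESeq2). Over all entries tested the shares were 18.4% higher and 15% lower. ESAM lost the call without co-cultured 1 (edgeR adjusted p = 0.0968) and ICAM2 without any 1 library other than control 1 (edgeR adjusted p of 0.0753 to 0.188). NCI-H209 was recognisable by the SCLC and neuroendocrine markers, of which 9 were tested, 4 higher and 1 lower. They summed to 1934 to 2404 CPM in control and 2490 and 2605 CPM in co-cultured cells, although CHGA, a granule protein among them, had 1 count in 1 library and 0 in the others. Unmapped reads made up 8.13% to 8.48% of control reads but 16.8% and 15.9% of reads after co-culture. Mapped reads on no annotated feature made up 47.3%, 51.2% and 49.6% of control reads but 40.1% and 40.8% after co-culture. The part of these differences and of the markers called higher in the class I values was not tested.

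The 3 genes whose level over the 5 libraries was most like the mean of HLA-B, B2M and NLRC5 (centred log2 CPM), among 17136 genes with a mean of at least 1 CPM, were TNFAIP1, LMF2 and TMEM160, each with a Pearson r of 0.999. TNFAIP1 was at 38.1, 34.5 and 34.2 CPM in control and 43.3 and 40.2 CPM in co-cultured cells. With 5 libraries in 2 groups that share depth and scaling, this is a description of the pattern.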

How the data were processed

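RNA-Seq libraries (rRNA-depleted RNA, directional kit) of NCI-H209 were compared as 3 control against 2 co-cultured libraries, grouped by the labels. Per the labels, CASAVA 1.8, STAR 2.6.1b, DESeq2 and the build GRCh38 were used upstream. The authors deposited raw read counts per gene in STAR's layout, without a normalization, for both strand settings and unstranded. The counts of the expected strand, which held 92.3% to 93.1% of stranded counts, were used. The 4 summary rows (unmapped, multimapping, no feature, ambiguous) were left out, and genes held 30.7% to 33.6% of reads. Primary entries were named from GENCODE 29 and patch or haplotype entries from the symbol column of the series' gene table. That table's columns on the comparison (base mean, fold change, p) were not used.

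Counts were filtered with filterByExpr, scaled by TMM and tested with edgeR 4.0.16 (glmQLFit, glmQLFTest, group only, R 4.3.3). P-values were adjusted by Benjamini-Hochberg over all 20360 entries, and a call is an adjusted p under 0.05. CPM are TMM-scaled. On simulated counts of this comparison (20360 entries), 133 of 200 entries changed by 1 on the log2 scale were called, with 17 false calls. In the data 3750 entries were called higher and 3059 lower, and the called class I entries changed by 0.55 to 0.89. The simulation therefore does not give the error rate of these calls.

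The 9 genes and all lists were chosen with earlier results of these data known. Named were all entries of the 9 genes, up to 4 tested genes per list with the smallest p, genes needed to read a value, and the 3 genes most alike. A gene that the rule names is not reported here. Genes named beyond that rule (NFYA, CANX, RPS18, TUBB, ABCF1, IFNG, IFNB1, PSME1, PSME2, IRF9, the genes listed at 0, CHGA and the endothelial markers) were chosen after their values were seen. Alternatives were DESeq2 1.42.0, other scalings, filters, strands, summed entries, a replicate block and single libraries left out. Depth limits small counts, and intervals on shares cover counting error only.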

Additional observations from a re-analysis of the deposited data

How the results depend on the processing

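HLA-B, the first HLA-C haplotype entry and NLRC5 stayed higher in direction in all alternatives run, with log2 fold changes of 0.60 to 0.98, 0.70 to 0.94 and 0.45 to 0.65 over single omitted libraries. The number of primary entries called higher was 0 to 2 with 1 library left out, and pathway genes called higher were 18 to 44 and called lower 1 to 5. With the replicate block, 1 primary entry (HLA-B) was called, and NLRC5 (edgeR adjusted p = 0.114) and 2 of the 3 tested HLA-B haplotype entries (edgeR adjusted p = 0.0653 and 0.0546) lost the call. The same numbers are not stated to mark a shared culture or day (r = -0.106 between the differences of replicates 1 and 2 in both groups over 20360 entries), so the block rests on a number alone. With DESeq2, 2 pathway genes were lower, and with unstranded counts 1. On the primary entries, 0 genes were called lower and 0 passed the study's criterion in every alternative. Of the tested haplotype entries, ENSG00000223532.10 (1.10) and ENSG00000232126.8 (1.01) of HLA-B passed that criterion without control 1, and the latter (1.01) and ENSG00000237022.10 of HLA-C (1.06) without co-cultured 2. B2M changed sign without a call with upper-quartile scaling (-0.064), the replicate block (-0.017) and without control 2 (-0.027), control 3 (-0.012) or co-cultured 1 (-0.086), with a highest value of 0.12 without 1 library. HLA-F changed sign with opposite-strand counts subtracted (0.10), and over single omitted libraries it ran from -1.0 to 0.57, the second HLA-C haplotype entry from -0.0084 to 1.06 and the B2M patch entry from -0.17 to 0.82, each changing sign without co-cultured 1. The causes were not tested. No scaling moved the median of all entries by more than 0.079. Where a group was left with 1 library, that library was assumed to vary like those of the other group. HLA-E, TAP1, TAP2 and PSMB9 had too few counts for a test.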
